A study of Caenorhabditis elegans with 4 samples.

Results

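The subject is the set of MRE-11 peaks on chromosome V of Caenorhabditis elegans, chosen as every interval that the series-level peak list places on V. These are 1066 of the 6864 peaks of that list, or 15.5% of the 6862 on the nuclear chromosomes. The peaks on V of the 2 replicate lists, 234 of 1579 in replicate 1 and 689 of 4403 in replicate 2, were set beside them. All samples were hermaphrodites of the strain fem-2(b245), with the mutation on chromosome III, described as young adults that contain a germline and grown at 20 °C. The growth protocol of the same samples speaks of gravid adults. 2 samples were chromatin immunoprecipitations with a rabbit polyclonal antibody against MRE-11 and 2 were input DNA, for which no peak list was analysed. Every sample carried the mutation, so nothing here compares it with wild type, and chromatin came from whole ground animals, so germline and soma cannot be told apart.

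MRE-11 is the nuclease of the MRE11-RAD50 complex, which binds DNA ends and trims them at double-strand breaks, including the breaks that meiotic cells make to recombine. Chromatin immunoprecipitation followed by sequencing (ChIP-seq) recovers the DNA crosslinked to a protein, and a peak is a stretch where the peak caller found more of it than its background model allows. Worm autosomes have a gene-dense centre with little recombination and 2 arms that recombine more and hold more repeats. Chromosome V is the longest of them and is known for its many chemoreceptor genes and for the tandem array of 5S ribosomal RNA and SL1 spliced leader genes. In the RefSeq table of assembly WBcel235, 15 of 16 rrn-4 (5S rRNA) genes and 12 of 12 sls-1 (SL1) genes are on V. The peaks are on WormBase WS220, so none was matched to a gene.

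Chromosome V had the lowest peak density of the 5 autosomes in all 3 lists. The series-level list held 50.9 peaks per Mb on V, against 84.9 over the other 4 autosomes, 66.0 on II, the next lowest, and 31.9 on X. Replicate 1 held 11.2 per Mb on V against 19.2 on the other autosomes, and replicate 2 held 32.9 against 54.6. Relative to the other autosomes the replicates were close, at 0.583 and 0.603 (mean 0.593 ± 0.0146, SD, n = 2).

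The density was tested with a log-linear model of peak midpoints in windows of 500 kb, in which the spread between windows sets the error (quasi-Poisson, 42 windows on V of 167, p-values adjusted over 20 tests by the Benjamini-Hochberg method). The ratio of V to the other autosomes was 0.600 in the series-level list (95% interval 0.480 to 0.752, adjusted p = 9.15e-05, n = 167 windows). It was 0.583 in replicate 1 (0.427 to 0.795, adjusted p = 0.00212) and 0.603 in replicate 2 (0.519 to 0.701, adjusted p = 7.19e-09, n = 167 windows). In replicate 1 the call was lost in the upper 50% of the list by score (0.723, adjusted p = 0.225) and by covered bases (0.679, adjusted p = 0.147, n = 167 windows). Neighbouring windows can share peak clusters and a test over windows describes 1 list, not the spread between samples.

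Compared with single chromosomes, in tests added after the data were seen and adjusted over 34, V stood apart from I, III and IV in all 3 lists. Against II the ratio was 0.772 in the series-level list (adjusted p = 0.0237) and 0.712 in replicate 2 (adjusted p = 0.00277, n = 73 windows). In replicate 1 it was 0.802 with an interval of 0.592 to 1.09 (adjusted p = 0.187, n = 73 windows). V was denser than X in the series-level list (1.59 times, adjusted p = 0.00322) and in replicate 2 (1.67 times, adjusted p = 0.00106, n = 78 windows). In replicate 1 the ratio to X was 1.22 (0.815 to 1.84, adjusted p = 0.347, n = 78 windows).

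In the series-level list the fitted deficit of V was equal in its centre and on its outer parts. With the chromosome divided into 3 equal segments of 6.97 Mb, the central segment held 45.9 series-level peaks per Mb and the outer segments 53.5, against 75.5 and 89.5 on the other autosomes. The ratio to the other autosomes was 0.601 in the central segment (0.475 to 0.759, adjusted p = 2.90e-04) and 0.601 in the outer segments (0.444 to 0.815, adjusted p = 0.00306, n = 54 central and n = 113 outer windows). In replicate 1 the central ratio was 0.536 (adjusted p = 3.46e-04) and the outer ratio 0.601 (adjusted p = 0.0179, n = 54 central and n = 113 outer windows). In replicate 2 they were 0.598 (adjusted p = 4.73e-04) and 0.606 (adjusted p = 7.26e-06, n = 54 central and n = 113 outer windows). The central deficit divided by the outer one gave 0.999 in the series-level list (0.617 to 1.62, adjusted p = 0.995, n = 167 windows), 0.893 in replicate 1 (0.450 to 1.77) and 0.987 in replicate 2 (0.719 to 1.36). These intervals leave room for a difference of over 1.5 times in either direction in the series-level list and in replicate 1. In replicate 1 the outer ratio lost its call with windows of 1 Mb, in the upper 50% by score and by covered bases, and the central ratio in the upper 50% by score.

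The 2 outer segments were not alike. The left segment held 296 series-level peaks (27.8% of those on V, 95% exact interval 25.1 to 30.6), the central segment 320 (30.0%) and the right segment 450 (42.2%, 39.2 to 45.2). Replicate 1 had 69, 51 and 114 peaks in the same order, and replicate 2 had 193, 235 and 261. The right segment was the fullest in every list. The left segment was the emptiest in the series-level list and in replicate 2, and the central segment in replicate 1. Peaks of 1 cluster are not independent, so the exact intervals given here can be too narrow.

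Set against the same segment of the other autosomes, the fitted ratio was lower on the left than on the right in each list. The left ratio was 0.408 in the series-level list (adjusted p = 0.00422), 0.386 in replicate 1 (adjusted p = 0.0137) and 0.510 in replicate 2 (adjusted p = 2.94e-04, n = 55 windows). Part of the comparison is the dense left segment of III, and without III these were 0.501, 0.488 and 0.553 (adjusted p = 6.00e-04, 0.00295 and 0.00106, n = 46 windows). On the right the ratio was 0.869 in the series-level list (0.666 to 1.13, adjusted p = 0.324) and 0.903 in replicate 1 (0.644 to 1.27, adjusted p = 0.563, n = 58 windows). In replicate 2 it was 0.705 (0.556 to 0.893, adjusted p = 0.00886, n = 58 windows).

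The test of the difference itself, the left ratio divided by the right one, gave 0.470 in the series-level list (adjusted p = 0.0176) and 0.427 in replicate 1 (adjusted p = 0.0285, n = 113 windows). In replicate 2 it gave 0.723 (0.495 to 1.06, adjusted p = 0.117, n = 113 windows). Without the 3 densest windows of V, all in the right segment, it was 0.632, 0.641 and 0.846 in the series-level list and replicates 1 and 2. Those windows were picked for their counts and left out of V alone, which moves the ratios by construction, so values without them are given here and further on as descriptions with no test. The split of left from right was made after the values were seen.

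**Figure D1:**
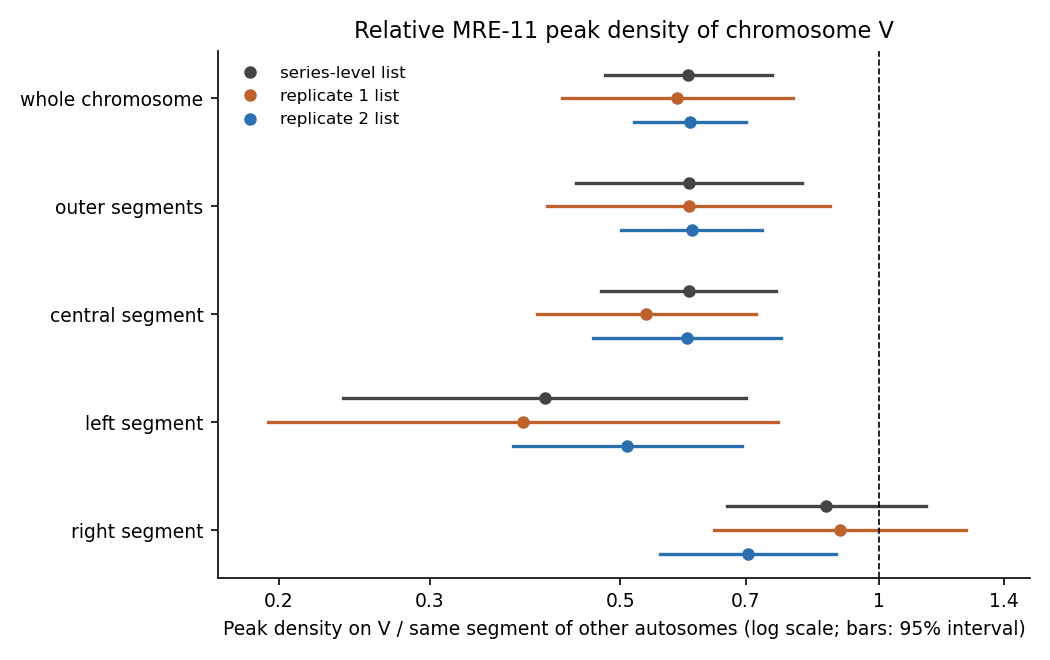
Peak density on chromosome V relative to the same part of the other 4 autosomes (horizontal axis, log scale), for each peak list. Points are ratios from the window model and bars are 95% intervals; whole-chromosome, outer and central ratios lie between 0.536 and 0.606, the left segment between 0.386 and 0.510 and the right segment between 0.705 and 0.903.

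Along the chromosome the shortage was spread over most windows rather than held by a few empty ones. Of 41 full windows on V, 36 held fewer series-level peaks than the median window of the other autosomes, 23 against 39 at the medians. In replicate 1, 33 of 41 lay under that median (4 against 8) and in replicate 2, 39 of 41 (16 against 27). No full window was without a peak in any list. The sparsest was V:3000001-3500000, with 7 series-level, 3 replicate 1 and 3 replicate 2 peaks, and no full autosomal window had fewer in the series-level list or in replicate 2. Next came V:2500001-3000000 with 11, 3 and 10 peaks and V:7000001-7500000 with 12, 5 and 11. The left segment held the 3 longest series-level gaps as well. No peak lay in V:349327-658104 (309 kb), V:3099606-3315410 (216 kb) or V:2694803-2890649 (196 kb).

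**Figure D2:**
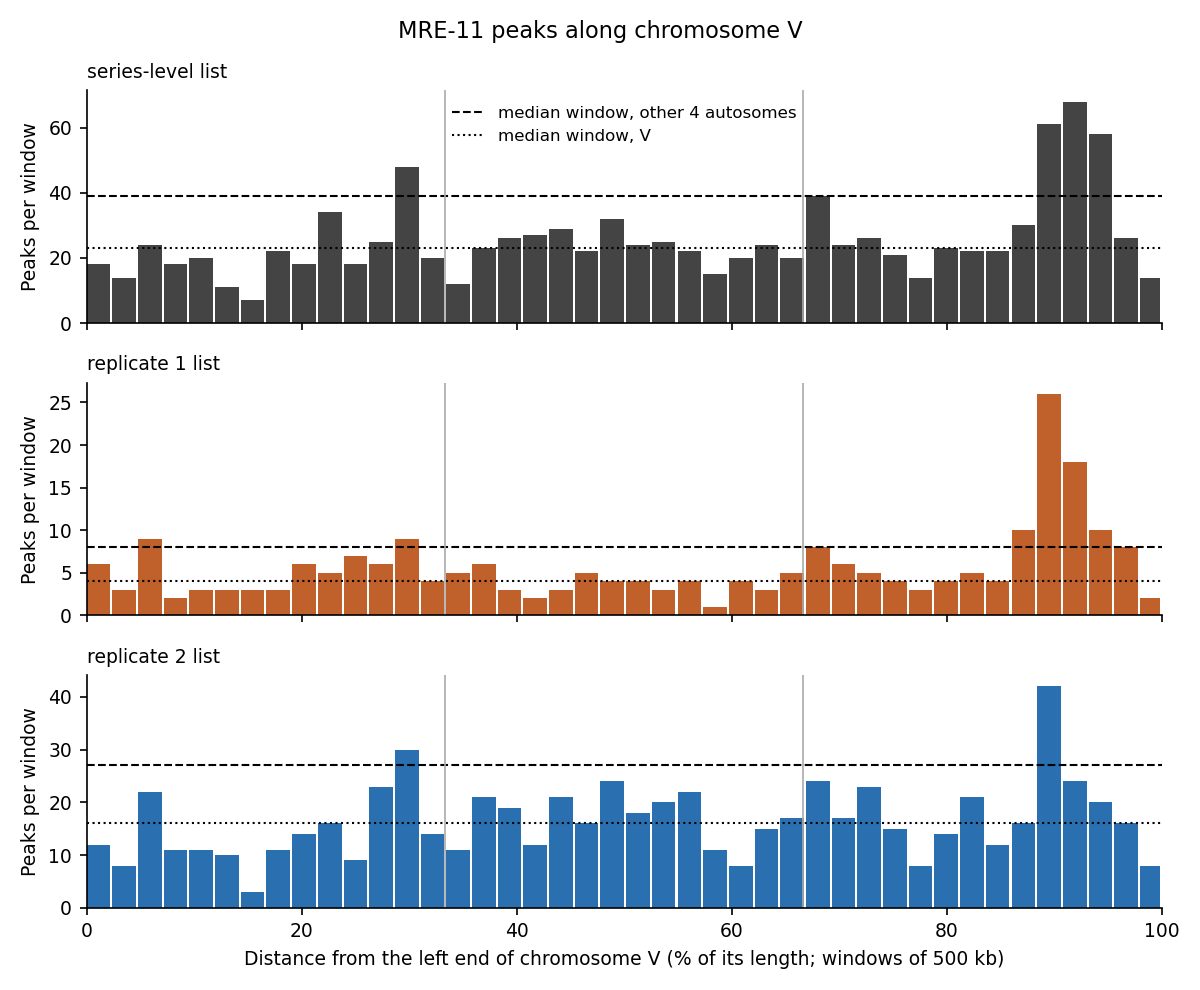
Number of peaks in each 500 kb window along chromosome V (vertical axis) against distance from its left end (horizontal axis, percent of the length), 1 panel for each list. The dashed line is the median window of the other 4 autosomes, the dotted line that of V and grey lines bound the segments; 36, 33 and 39 of 41 full windows lie below the dashed line, and the tallest bars stand near 90% of the length.

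The densest stretch was a block of 3 adjoining windows, V:18500001-20000000, in the right segment. Its windows held 61, 68 and 58 series-level peaks from left to right, 26, 18 and 10 in replicate 1, and 42, 24 and 20 in replicate 2. They were the 3 densest windows of V in the series-level list and ranked 16, 9 and 18 among the 162 full autosomal windows. The block makes up 7.17% of V and held 187 of its 1066 series-level peaks (17.5%), 54 of 234 in replicate 1 (23.1%) and 86 of 689 in replicate 2 (12.5%). The rest of V had 45.3 series-level peaks per Mb, against 125 in the block. It was picked for its peak number, so these values are a description without a test.

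The peaks of the block differed from the rest of V in which replicate list they overlapped. 88 of the 187 (47.1%) overlapped replicate 1 only, against 6.83% on the rest of V, and 13 (6.95%) overlapped replicate 2 only, against 43.0%. In all, 142 peaks of the block overlapped replicate 1, which held 54 peaks there, so 1 wide replicate 1 peak can count for several. The left segment of III, also dense in peaks, had 45.4% over replicate 1 only and 15.4% over replicate 2 only. Replicate 1 peaks in the block were wide and high in their list, at a median of 1999.5 bp against 1519.5 bp elsewhere on V and a median percentile rank of the score of 71.2 against 52.6. Replicate 2 peaks there were narrower (median 306 bp, elsewhere 375 bp) and their median percentile rank was 43.2 against 52.2. Its largest run of series-level peaks with gaps of 5 kb or less was V:19882564-19921184, with 29 peaks in 38.6 kb. The next on V was V:6071451-6101502 in the left segment, with 17 peaks, and replicate 2 had 15 peaks over nearly the same stretch.

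With gaps of 5 kb or less joined, the 1066 peaks formed 525 groups, of which 302 were single peaks and 58 held 4 or more. The median gap between series-level peaks was 4.75 kb on V, 3.95 kb on I, 5.37 kb on II, 1.91 kb on III and 4.09 kb on IV. The order of V and II was the reverse in the replicates, with 54.9 kb on V and 49.4 kb on II in replicate 1. In replicate 2 these were 9.92 and 7.335 kb. In the series-level list V had 34 gaps over 100 kb, against 4 to 15 on each other autosome and 44 on X.

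Peak width on V was close to that of the other autosomes, with a somewhat larger share of broad peaks. The median series-level width was 283 bp on V (quartiles 194 and 453) and 282 bp on the other autosomes. In replicate 2 the medians were 366 and 377 bp and in replicate 1 1677.5 and 1404 bp. The mean log2 width on V was higher by 0.04 in the series-level list (-0.04 to 0.13, adjusted p = 0.4998), by 0.02 in replicate 2 (-0.08 to 0.12, adjusted p = 0.864) and by 0.18 in replicate 1 (-4.46e-04 to 0.35, adjusted p = 0.0920, n = 167 windows). This linear model clustered its errors by 500 kb window. Without III the replicate 1 difference was 0.24 (adjusted p = 0.00983, n = 139 windows), and without the dense block it was 0.05. Of the series-level peaks on V, 91 (8.54%) were 1 kb or wider, against 5.64% of those on the other autosomes (difference 2.90 percentage points, 0.452 to 5.34, adjusted p = 0.0285, n = 167 windows, a test added after the data were seen). Without the dense block this difference was 1.98 points. In replicate 2 the shares were 9.14% and 6.99% (difference 2.16 points, -0.945 to 5.26, adjusted p = 0.201, n = 167 windows). The share on X was 8.48% in the series-level list and 15.7% in replicate 2, so a larger share of broad peaks was not particular to V.

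Scores of the peaks on V ranked higher than those of the other autosomes in replicate 1, and the difference did not pass in the other lists. A percentile rank of 50 marks the middle of a list. The mean rank in replicate 1 was 55.3 on V and 47.5 on the other autosomes, a difference of 7.79 points (2.53 to 13.1, adjusted p = 0.00879, n = 167 windows). Without the dense block it was 4.25 points. The difference was 1.90 points in replicate 2 (-0.733 to 4.53, adjusted p = 0.260) and 0.760 points in the series-level list (-2.06 to 3.59, adjusted p = 0.851, n = 167 windows). Whether the replicates differ in this was not tested. X had a higher mean rank than V in replicate 1, at 60.9.

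At the top of the lists, V held 19 of the 100 highest scores of replicate 1 (95% exact interval 11.8 to 28.1%), 13 of replicate 2 (7.11 to 21.2%) and 9 of the series-level list (4.198 to 16.4%). V makes up 14.8%, 15.6% and 15.5% of all nuclear peaks of the 3 lists. Each of these list shares lay within the interval of the top 100. Among autosomal peaks only, V held 27.9% of those in the top 100 of replicate 1 (16.5% of the list), 18.8% in replicate 2 (17.0%) and 14.3% in the series-level list (16.9%). Among the 500 highest it was 101 of 500 in replicate 1 (20.2%, 16.8 to 24.0), 87 of 500 in replicate 2 (17.4%) and 77 of 501, ties included, in the series-level list (15.4%). Peaks of 1 cluster are not independent, so these intervals can be too narrow.

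The strongest sites of V were wider than its typical peak. The 10 highest series-level scores belonged to peaks of 343 to 6685 bp, with 494 bp in the middle. Each exceeded 283 bp, the median over all series-level peaks of V. Score and width rose together across these 1066 peaks (Spearman's rho 0.64). The highest series-level score on V was 148.24, at V:5776880-5777463 (584 bp), rank 35 of the list. Its neighbour V:5777529-5778505 (977 bp, score 126.73) ranked 3 on V, and 1 replicate 1 peak of 2407 bp with a score of 890 lay over both. The best replicate 2 score there was 2091.63. Second on V was V:14038376-14039008 (633 bp, score 143.05), with scores of 511 in replicate 1 and 2621.28 in replicate 2. Both sites were thus found in all 3 lists.

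Then followed V:18967608-18967950 (343 bp, score 106.61), V:10807873-10808285 (413 bp, 101.03), V:3434484-3441168 (6685 bp, 98.34) and V:10965454-10965890 (437 bp, 96.92). The last of the 10 were V:9549396-9549787 (392 bp, 94.86), V:7236995-7237497 (503 bp, 94.21) and V:15002005-15002489 (485 bp, 88.63). All 10 overlapped a peak in both replicates, as did the 10 highest of the other autosomes, and 9 of them were narrower than 1 kb. In replicate 2 their best scores were in the upper part of the list, at percentile ranks of 88.7 to 99.1. Replicate 1 ranked some of them low, with V:10807873-10808285 at 8.71 (score 57.8) and V:9549396-9549787 at 22.0 (score 74.8). The 10 highest on the other autosomes scored 145.95 to 172.07, so 1 peak of V reached that range. Their median width was 552.5 bp against 494 bp on V. They were drawn from 5230 peaks, against 1066 on V, so the 2 sets of 10 are not like for like.

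The broadest sites ranked high in all 3 lists. The 10 widest had percentile ranks of the score of 85.7 to 98.8 in the series-level list. Their best overlapping peaks had 87.4 to 98.5 in replicate 1 and 95.7 to 99.1 in replicate 2. The widest was V:7916798-7925040, with 8243 bp, the second widest series-level peak of all nuclear chromosomes. It had a series-level score of 75.12 and scores of 3100 in both replicates, where it spanned 10095 and 8381 bp. In replicate 1 exactly 3100 was the score of 6 peaks on V, 18 on the other autosomes and 13 on X. In replicate 2 these were 9, 36 and 25, and few scores were higher than 3100 (up to 3208.95 and 3205.56). This value may be a ceiling of the score, so peaks at 3100 cannot be ranked against each other. V:17119895-17126625 (6731 bp, score 77.09) and V:17128100-17132136 (4037 bp, 78.39) lay side by side, and replicate 1 joined them in 1 peak of 13094 bp with a score of 1205.02. Replicate 2 kept them apart, each with a score of 3100.

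V:3434484-3441168, the third widest, was the only peak among both the 10 widest and the 10 highest, and scored 3100 in both replicates. It stood in the sparsest window of V, and the longest gap of replicate 2 on V, V:3054136-3434489 (380 kb), ended at it. The others were V:10018312-10023580 (5269 bp), V:9339716-9344397 (4682 bp), V:10605622-10609899 (4278 bp), V:723947-727792 (3846 bp), V:4333154-4336689 (3536 bp) and V:17308476-17311632 (3157 bp). All 10 overlapped both replicates, as did 8 of the 10 widest on the other autosomes and 8 of 10 on X, and they lay 3 in the left, 4 in the central and 3 in the right segment. Their median series-level score was 77.74, against 51.32 for the 10 widest of the other autosomes. These sets too were drawn from unlike numbers of peaks, 1066 on V and 5230 on the other autosomes.

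The highest scores of the replicates fell on broad sites of this kind. Replicate 1 had 6 peaks on V at a score of 3100 exactly, 4389 to 10095 bp wide, and replicate 2 had 10 at 3100 or more, 1715 to 8381 bp wide. All of these overlapped a peak of the other replicate. For comparison, each replicate list was divided into 5 equal groups by score. In the highest group on V, 59 of 61 replicate 1 peaks (96.7%) and 111 of 146 replicate 2 peaks (76.0%) overlapped the other replicate. Overlap of the peaks at 3100 on other chromosomes was not tested. The best series-level scores were 38.37 to 98.34 over the 6 replicate 1 peaks and 29.68 to 98.34 over the 10 of replicate 2. The highest replicate 2 score on V, 3121.42, was at V:5639837-5641551 (1715 bp), where replicate 1 scored 2383.73 and the series-level list 56.8. 2 of the 6 replicate 1 peaks lay in the dense block, V:18545531-18550119 and V:19118715-19124965. Replicate 2 had 3 peaks under the first and 2 under the second, with best scores of 1434 and 2181.68.

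**Figure D3:**
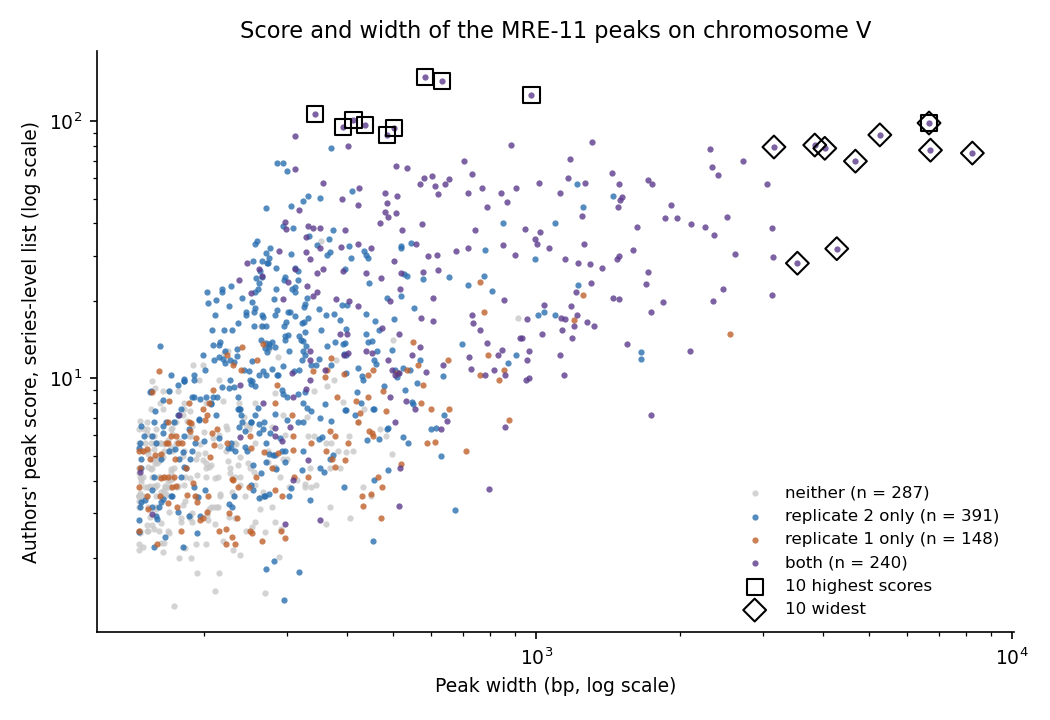
Series-level score (vertical axis, log scale) against width (horizontal axis, bp, log scale) of the 1066 peaks on chromosome V, coloured by which replicate list they overlap. Squares mark the 10 highest scores (88.63 to 148.24) and diamonds the 10 widest (3157 to 8243 bp), with 1 peak in both groups, and peaks that overlap both replicates fill the upper right.

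Replicate 2 overlapped more of the V peaks than replicate 1, as on the other autosomes. Overlap by at least 1 bp with replicate 1 was found for 388 of 1066 peaks (36.4%, 95% exact interval 33.5 to 39.4), where the background over all nuclear peaks was 37.7%. Replicate 2 overlapped 631 (59.2%, 56.2 to 62.2), with a background of 58.8%. Both shares were near the background, and the differences of V from the other autosomes were -1.29 percentage points (-11.8 to 9.22, adjusted p = 0.952) and 0.245 points (-7.59 to 8.08, adjusted p = 0.995, n = 167 windows). Replicate 1 peaks are wide, and 80 of the 234 on V lay over 2 or more series-level peaks, up to 14. Without the dense block, which holds 88 of the 148 V peaks over replicate 1 only, the replicate 1 difference was -9.70 points.

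In all, 240 V peaks (22.5%) overlapped both replicates, beside a background of 23.2%. 391 (36.7%) overlapped replicate 2 only, 148 (13.9%) replicate 1 only and 287 (26.9%) neither, beside a background of 26.8% for neither. The peaks over both were the highest and broadest, at medians of 27.4 for the score and 634.5 bp for the width. Those over replicate 2 only had 10.46 and 282 bp, those over replicate 1 only 5.58 and 251 bp, and those over neither 4.46 and 187 bp. Of the 91 peaks of 1 kb or more, 78 overlapped both replicates and none overlapped neither, beside 236 and 2 of the 295 such peaks on the other autosomes.

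The share found again rose with the score, and it rose differently for the replicates. In the lowest of 5 equal groups of the series-level list by score, 49 of 219 V peaks (22.4%) overlapped replicate 1 and 51 (23.3%) replicate 2. In the fourth group these were 38.6% and 83.5% of 236, and in the highest 65.6% (59.1 to 71.8) and 98.7% (96.2 to 99.7) of 227. The other autosomes had 66.4% and 98.9% in the highest group. 1 V peak of the highest group overlapped neither list, the last series-level peak of V, V:20923820-20924172 (score 34.19), which ends at the largest position on V in any list. The first peak of V began at base 1 in each list, with 390 bp and a score of 49.9 in the series-level list, 902 bp and 699 in replicate 1, and 375 bp and 819 in replicate 2.

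**Figure D4:**
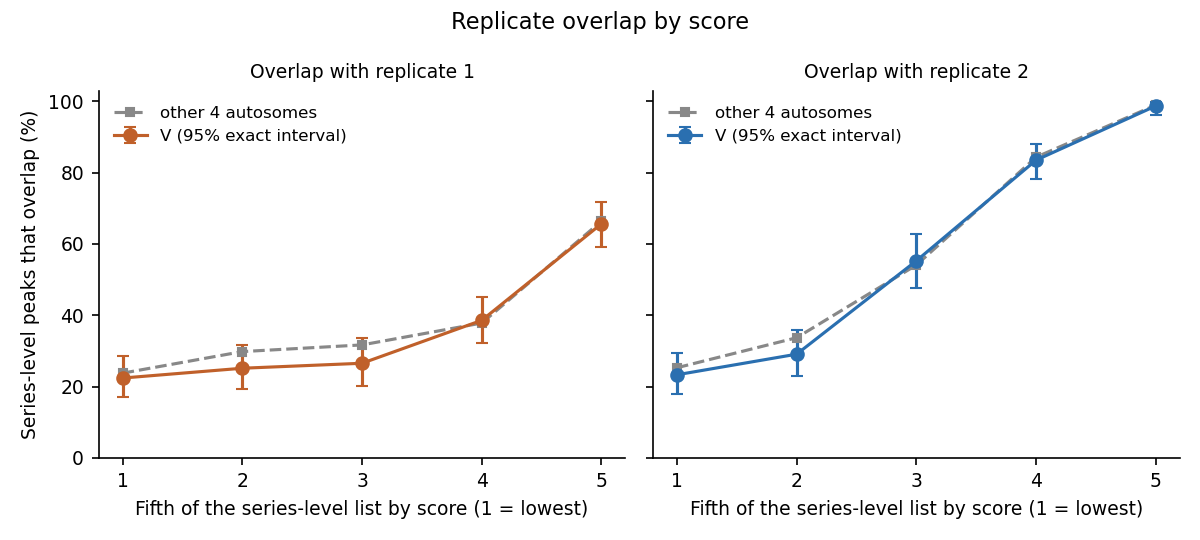
Share of series-level peaks that overlap replicate 1 (left) or replicate 2 (right) by at least 1 bp (vertical axis, percent) in 5 equal groups by score (horizontal axis), for V with 95% exact intervals and for the other 4 autosomes. The share for V reaches 65.6% in replicate 1 and 98.7% in replicate 2 in the highest group, beside 66.4% and 98.9% on the other autosomes.

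Where on V a peak lay went with the replicate list it overlapped. Replicate 1 overlapped 93 of 296 peaks in the left segment (31.4%), 72 of 320 in the central segment (22.5%) and 223 of 450 in the right segment (49.6%). For replicate 2 the shares were 61.8%, 68.8% and 50.7%. On V the central segment had a replicate 1 share 19.9 percentage points below that of the outer segments (-31.9 to -7.85, adjusted p = 0.00434, n = 42 windows), and 8.63 points below it without the dense block. Its replicate 2 share was 13.7 points above that of the outer segments (2.40 to 24.9, adjusted p = 0.0276, n = 42 windows), and 7.21 points without the block. This contrast was not particular to V. On the other autosomes replicate 1 overlapped 26.0% of the central and 42.6% of the outer peaks, and replicate 2 overlapped 70.0% and 54.3%.

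Set against the same segment of the other autosomes, the left segment of V had a lower replicate 1 share, by -16.4 points (adjusted p = 0.0176), and a higher replicate 2 share, by 14.9 points (adjusted p = 0.00521, n = 57 windows). Without III, whose left segment had a replicate 1 share of 65.8%, these were -6.10 points (adjusted p = 0.164) and 8.37 points (adjusted p = 0.0621, n = 47 windows). In the right segment the differences were 14.3 points for replicate 1 (-1.74 to 30.3, adjusted p = 0.104) and -13.9 points for replicate 2 (-25.2 to -2.59, adjusted p = 0.0261, n = 59 windows). Without the dense block they were -4.50 and -3.36 points. In the central segment they were -3.47 points (-8.65 to 1.72, adjusted p = 0.211) and -1.22 points (-9.67 to 7.22, adjusted p = 0.773, n = 60 windows). These comparisons by segment were added after the data were seen.

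**Figure D5:**
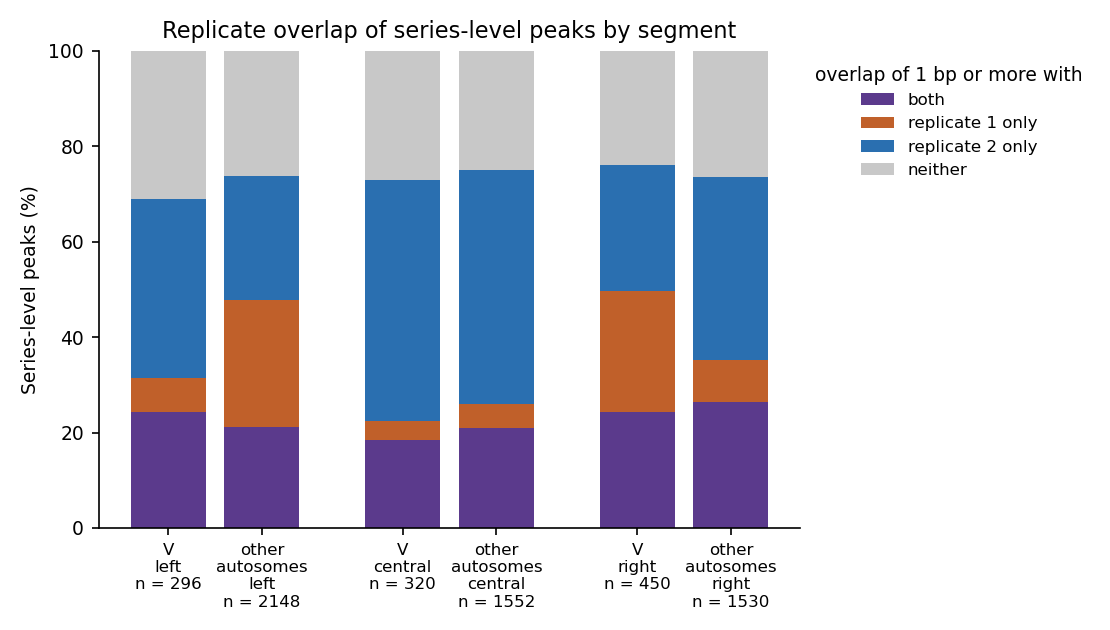
Share of series-level peaks (vertical axis, percent) that overlap both replicates, 1 of them or neither, for the left, central and right segment of V and of the other 4 autosomes, with the number of peaks under each bar. Peaks over replicate 1 only make up 25.3% of the right segment of V and 26.7% of the left segment of the other autosomes, against 4.06% and 4.96% in the central segments.

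Read from the replicates, nearly every V peak had a series-level counterpart. Of the 234 replicate 1 peaks 230 (98.3%) overlapped a series-level peak, beside a background of 97.6%, and of the 689 replicate 2 peaks 645 (93.6%), beside 92.9%. The 4 replicate 1 peaks without one were all in the right segment, the strongest V:18353395-18354963 (score 113.5), V:18984323-18985724 (110.0) and V:20095832-20097346 (105.0). The strongest of the 44 in replicate 2 were V:2712496-2712745 (112.79), V:18565823-18566086 (105.99) and V:14056876-14057061 (101.93). Between the replicates, 194 of 234 replicate 1 peaks (82.9%, 77.5 to 87.5) overlapped replicate 2, with a background of 79.5%, and 267 of 689 replicate 2 peaks (38.8%, 35.1 to 42.5) overlapped replicate 1, with a background of 39.5%. Of the 40 replicate 1 peaks on V without a replicate 2 partner, 27 were in the right segment, 9 in the left and 4 in the central segment. The share with a partner was 76.3% in the right, 87.0% in the left and 92.2% in the central segment of V, beside 85.8%, 67.1% and 90.1% on the other autosomes.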

How the data were processed

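Peaks were deposited by the authors as 3 lists on WormBase WS220 per the file headers, with MACS as the caller of each replicate list and MACS v2 of the series-level list. The submitters' processing notes name BWA as a tool and ce10 as a build. Each deposited peak has a score by the authors' caller in a unit that is not named, used only as a rank within a list or as a value of a peak. Nothing on the control, the settings or any pooling was given in the sources used here. The lists hold no read counts, so the depth is unknown. Labels do not say whether replicates came from separate cultures.

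A peak was placed by its midpoint, and chromosome lengths were the largest peak end in any list. Window densities were fitted by quasi-Poisson models and peak values by linear models with errors clustered by window. Both were tried on simulated data with independent windows and normally distributed peak values. That trial does not cover clusters shared between neighbouring windows or shares of overlap. Exact intervals, of segment and overlap shares alike, treat peaks as independent and cover counting error only. With clustered peaks they can be too narrow. Named peaks were the 10 highest and 10 widest series-level peaks of V, the 3 highest of each replicate (with ties), the 3 highest of each replicate without a series-level peak, the first and last peaks and the 3 densest and 3 sparsest windows. The members and comparisons were chosen with earlier results of these data known. No genome of the build was used here. Analyses used Python 3.11.15, numpy 2.4.6, pandas 2.3.3, scipy 1.17.1, statsmodels 0.14.6 and matplotlib 3.10.9.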

Additional observations from a re-analysis of the deposited data

How the results depend on the processing

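Of 132 alternative values for 21 results, 9 changed their side of the threshold, and none reversed the direction of a called result. The 34 tests added after the data were seen are not in this count. These 9 were 8 values of replicate 1 and 1 of the overlap with it, and the causes were not tested. Some differences without a call changed sign. Without III, the overlap difference went from -1.29 to 2.26 points for replicate 1 and from 0.245 to -3.21 points for replicate 2. Among the higher-scoring 50% of replicate 1 peaks the density ratios of V lost their calls (0.723 over the chromosome, 0.741 on the outer segments and 0.677 in the central segment). By covered bases the ratios of replicate 1 lost them for the whole chromosome (0.679) and the outer segments (0.692), and with windows of 1 Mb for the outer segments (0.599). Without III the log2 width difference of replicate 1 gained a call (0.24), and without the 3 densest windows of V it was 0.05. Without the 3 densest windows of V the score rank difference of replicate 1 was 4.25 points, no longer past the threshold, and the overlap difference with replicate 1 was -9.70 points, now past it. Those windows were chosen from the counts and left out of V alone, so nothing rests on either call. Calls also changed among the 34 added tests. Both overlap differences of the left segment lost theirs without III (adjusted p = 0.164 and 0.0621, n = 47 windows). Without the densest windows, series-level calls lost included the left against right ratio and the share of 1 kb or more. The series-level right ratio gained a call, and the same limit holds for these. The alternatives named here for the segments and the width, and those without the densest windows, were chosen after seeing the data. Over its alternatives the density ratio of V ranged from 0.533 to 0.681 in the series-level list, from 0.483 to 0.723 in replicate 1 and from 0.569 to 0.663 in replicate 2. With 1 replicate left out, the mean ratio, which has no test, was 0.583 to 0.603. The series-level list could not be remade without a replicate. No paired analysis was possible because replicate numbers are shared only between ChIP and input, and no peaks of the input were analysed here.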

Other observations

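Series-level scores on V followed replicate 2 more closely than replicate 1. Across the 645 replicate 2 peaks of V that overlapped a series-level peak, Spearman's rho between the replicate 2 score and the highest series-level score was 0.76. Across 230 replicate 1 peaks it was 0.38. The other autosomes gave 0.77 over 3129 and 0.37 over 1155 peaks. Read from the series-level peaks of V, rho with the highest overlapping replicate score was 0.77 over 631 peaks for replicate 2 and 0.07 over 388 for replicate 1, where several series-level peaks can share 1 replicate 1 peak. Between window counts of V, rho was 0.56 for the replicates, 0.80 for the series-level list with replicate 2 and 0.47 with replicate 1, over 41 windows. All points of a list come from the same peak calling, and whether the lists share reads is not stated, so these values are descriptions.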
